A study of Mus musculus with 4 samples.

Results

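Nrf2 chromatin immunoprecipitation followed by sequencing (ChIP-seq) was compared between the esophagus of Keap1KO mice and that of wild-type mice. Every gene row of the deposited table was used, 1940 in all, and rows that list the same called intervals were counted once. This gave 1469 interval sets, which are all the sets of the series. The series has 1 ChIP library from each of 3 genotypes (wild-type, Keap1KO and Nrf2KO), all labelled as strain C57BL/6, and the antibody against Nrf2 was Santa Cruz sc-13032. The Nrf2KO library is printed beside the compared pair as the signal of the antibody in mice without Nrf2, and a pooled input was not analysed here. How the alleles were made, whether they act in all tissues, the ages, and the number of animals behind a library were not stated in the labels. With 1 library per genotype there is no replicate check and no test, so each value below describes these libraries only.

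Nrf2 (gene Nfe2l2) is a transcription factor that pairs with small Maf proteins and binds antioxidant response elements near genes for detoxification, thiol reduction and NADPH supply. Keap1 is the adaptor of a ubiquitin ligase that marks Nrf2 for degradation, and oxidants or electrophiles that modify Keap1 let Nrf2 accumulate. In the esophagus, mice without Keap1 are known for a thickened, keratinised squamous epithelium. The antioxidant response element shares its core with the element of AP-1 factors (Fos and Jun proteins), and many promoters also carry a site of ETS factors.

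The sequence at some of the compared intervals is shown first, in windows at sets with a high or a low ratio of Keap1KO over wild-type. They are taken from RefSeq promoter sequences of GRCm38.p6, the assembly that mm10 follows, and are written along the strand of the named gene. Capitals mark a match on either strand to TGACNNNGC (antioxidant response element core), TGANTCA (AP-1) or CCGGAAG (ETS). In the Ikbkg window the capitals also cover the extended 10-base element that pairs of Nrf2-like and small Maf proteins are known to bind. A match is a description of the letters and not a measured site. Every window shown holds a match, whereas 50 of the 148 distinct windows with an interval held none of the searched motifs. The windows shown are therefore not a sample of all. The first windows lie beside intervals that were higher in Keap1KO.
Srxn1 window (chr2:152105404-152105523, plus strand): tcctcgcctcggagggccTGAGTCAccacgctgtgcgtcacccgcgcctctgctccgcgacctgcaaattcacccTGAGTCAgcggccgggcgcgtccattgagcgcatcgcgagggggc
Gstp1 window (chr19:4037913-4038032, minus strand): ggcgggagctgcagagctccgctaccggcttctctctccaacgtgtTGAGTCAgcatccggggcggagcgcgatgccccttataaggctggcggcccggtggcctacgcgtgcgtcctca
Prdx1 window (chr4:116685454-116685483, plus strand): tccagggaaagcGCTGAGTCAtcccccgta
Osgin1 window (chr8:119437037-119437066, plus strand): caggggcccctgcTGACTCAcgcttatgaa
Aox1 window (chr1:58029734-58029763, plus strand): cagatactagagcaaTGACTCAggacttcc
Gsta3 window (chr1:21240452-21240481, plus strand): gcaactcaggcaTGACATTGCatttttctt
Ikbkg window (chrX:74424562-74424591, plus strand): ggggactggtcTGCTGAGTCAcagttgccc

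Srxn1, which encodes the sulfiredoxin that repairs oxidised peroxiredoxins, had an interval 12 bp into the gene. Wild-type had a height of 13 there, Nrf2KO 10 and Keap1KO 158, and 2 AP-1 matches lie in the window before its start. The full promoter window of Srxn1 also holds the antioxidant core, outside the letters shown. The interval 8 bp before Gstp1, a pi-class glutathione transferase gene, belongs to a set with 10.5, 4.5 and 89. Heights written as 3 values are always in the order wild-type, Nrf2KO and Keap1KO. At Prdx1, a peroxiredoxin gene (20, 9 and 103), the AP-1 match and the antioxidant core overlap. The Osgin1 window (11, 6 and 87, an oxidative stress induced growth inhibitor gene) and the Aox1 window (11, 8 and 86, aldehyde oxidase) each hold an AP-1 match. At Gstp1, Prdx1 and Osgin1 the AP-1 match lies in a stretch that differs from the extended 10-base element by a single letter. At Gsta3, an alpha-class glutathione transferase gene (6, 3 and 35), the capitals mark the antioxidant core alone. The window before Ikbkg, a gene of NF-kappa-B signalling, lies in the region of G6pdx, the entry enzyme of the pentose phosphate pathway, whose set had 5, 2 and 27.5.

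The second group of windows lies beside intervals with a low ratio of Keap1KO over wild-type.
Pwp1 window (chr10:85871631-85871750, plus strand): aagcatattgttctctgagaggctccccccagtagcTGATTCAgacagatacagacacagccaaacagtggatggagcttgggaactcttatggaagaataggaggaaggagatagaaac
Urm1 window (chr2:29827269-29827388, plus strand): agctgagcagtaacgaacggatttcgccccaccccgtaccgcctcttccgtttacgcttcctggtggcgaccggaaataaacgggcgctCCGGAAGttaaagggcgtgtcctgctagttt
Bms1 window (chr6:118419508-118419537, minus strand): acccagagcttaCTTCCGGctttcccctga
Atp5j window (chr16:84835022-84835051, minus strand): cttagctgagggacCCGGAAGcacttaccc

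Pwp1, a WD-repeat protein gene, had 13, 7 and 4, and its window also holds an AP-1 match. Urm1, the gene of a ubiquitin-like modifier, had 7, 11 and 11, so Keap1KO stood level with Nrf2KO. Bms1, a ribosome assembly gene, had 12, 11 and 14. The Atp5j window, before the gene of an ATP synthase subunit that shares its start region with Gabpa, belongs to a set with 13, 7 and 8. The Urm1, Bms1 and Atp5j windows each hold an ETS match. Urm1 and Bms1, like Gsta3 and Ikbkg above, were picked for display after their values were seen.

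Keap1KO heights ran from 2 to 194 over the 1469 sets, with a median of 18 and quartiles of 14 and 23.5. Wild-type had a median of 5, quartiles of 3.25 and 7 and a highest value of 32, and the median of Nrf2KO was 4.5. As a log2 ratio of Keap1KO to wild-type, with a pseudocount of 1 added to both heights, the median difference was 1.74 (95% order-statistic interval 1.70 to 1.77, over sets and not over animals). Its quartiles were 1.30 and 2.20, and its extremes -2.12 and 4.39. At 1292 sets (88.0% of all) the Keap1KO height was at least 2-fold above wild-type, and at 4 (0.272%) at least 2-fold below. Sets are listed only through a call, made in Keap1KO only at 1413, in both libraries at 44 and in wild-type only at 12. Keap1KO heights are thus selected upwards at most sets, and the part of this in the counts was not tested. It was at least 4-fold higher at 520 sets and at least 8-fold higher at 58. Depth and scaling of the libraries are unknown, so a common shift and a difference in library size cannot be told apart. With ratios centred on their median, a shift of 1.74, the counts were 109 sets at least 2-fold above it and 102 at least 2-fold below. Folds below are uncentred, and values given as relative to all sets have this median subtracted.

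**Figure D1:**
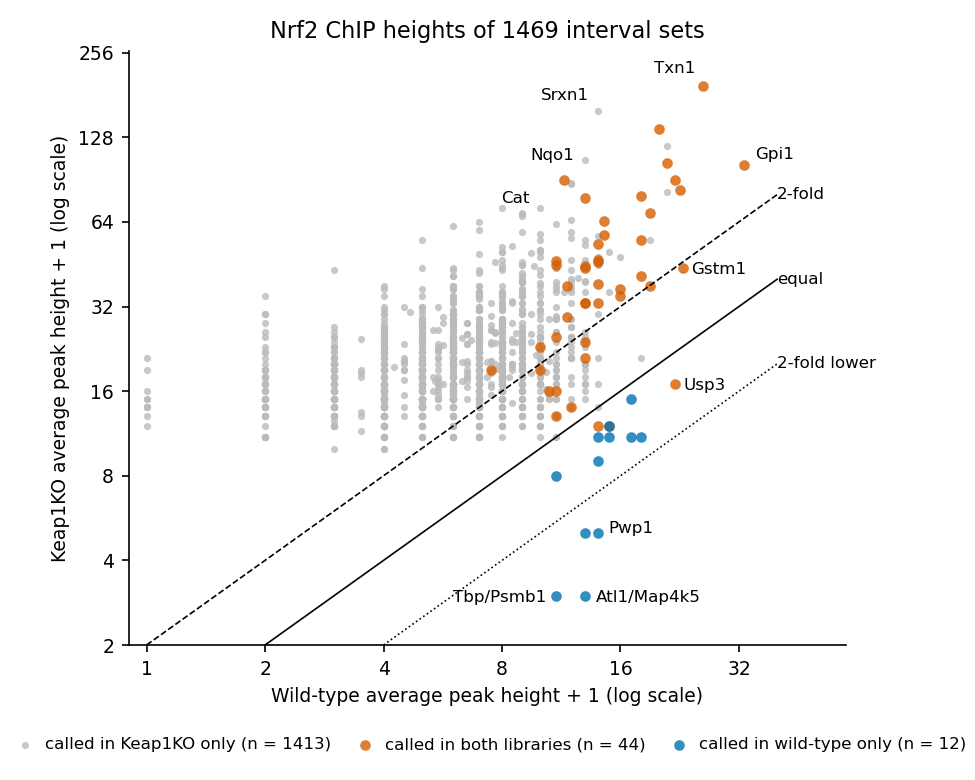
Average peak height plus 1 in wild-type (horizontal, log scale) and Keap1KO (vertical, log scale) for 1469 interval sets, 1 point each and coloured by the library in which an interval was called; lines mark equal heights and 2-fold differences. Most points lie above the 2-fold line, and the 12 sets called in wild-type only lie below the line of equality.

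The thioredoxin and peroxiredoxin list held the 2 tallest intervals, those of Txn1 and Srxn1, along with low ones. Txn1, thioredoxin itself, had the wild-type height 25, the Nrf2KO height 7 and the Keap1KO height 194 at an interval 341 bp before its start (chromosome 4, position 57956752). The last was the highest Keap1KO value of the table, 7.50-fold above wild-type. Srxn1 was 11.4-fold higher in Keap1KO. Txnrd1, thioredoxin reductase, had 12, 5 and 77 (6-fold) at a set also listed under Eid3. Lower members of the list were Prdx6 with 6, 3 and 31 and Prdx2 with 3, 4 and 17, the latter at an interval whose nearest start is that of Junb. Of 12 genes in the list 6 had a row, and Keap1KO was at least 2-fold higher at all 6, as at 88.0% of all sets. Keap1KO was at least 4-fold higher at all 6 too, against 35.4% of all sets. In the other gene lists this 4-fold share ran from 25% (heme and iron) to 66.7% (as in quinone and carbonyl reduction). The median log2 ratio of the thioredoxin and peroxiredoxin list, 2.45, was 0.71 relative to all sets.

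Glutathione synthesis and cystine uptake had 8 of 14 genes with a row. Gclc and Gclm, the catalytic and modifier subunits of glutamate-cysteine ligase, differed in level more than in ratio. Gclc had 13.5, 4 and 56.5 (3.97-fold), and Gclm had 5, 2 and 28 (4.83-fold). Slc7a11, the cystine transporter, had 3.67 in wild-type and the same height in Nrf2KO, against 29.67 in Keap1KO (6.57-fold). Slc3a2, its partner chain, had 3, 6 and 21, with wild-type below Nrf2KO. Gpx2, a glutathione peroxidase of gut epithelia, had 3, 3 and 26 (6.75-fold), and Gpx4, which reduces lipid peroxides, 10, 8 and 28 (2.64-fold). At Gss and Gsr, glutathione synthetase and reductase, Keap1KO reached 16.5 and 27. Keap1KO was at least 2-fold higher at all 8, a share to be read against 88.0% of all sets, and the list's median of 2.19 was 0.45 relative to all sets.

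Quinone and carbonyl reduction had the highest median of the 15 lists, 2.64, which is 0.91 relative to all sets. Nqo1, a quinone reductase whose set is also listed under Nob1, had 12, 6 and 105 (8.15-fold). Cbr3, a carbonyl reductase, started higher in wild-type, with 20, 9 and 81, and its fold was smaller (3.90). The aldo-keto reductase genes Akr1b8 and Akr1b10 stood at opposite ends of the list. Akr1b8 had 1, 3 and 29 (15-fold), where the low wild-type height makes the fold depend on the pseudocount. Akr1b10 had 13, 7 and 16 (1.21-fold) and was the 1 member under 2-fold. Aldh3a1, an aldehyde dehydrogenase, had 7, 7 and 49, Adh7, an alcohol dehydrogenase of upper digestive epithelia, 6, 1 and 48, and Ptgr1, a prostaglandin reductase, 3, 5 and 29. Ephx1, an epoxide hydrolase, had 5.33, 3.33 and 23.67. Of 17 genes in the list 9 had a row, and Keap1KO was at least 2-fold higher at 8 of these, close to the 88.0% of all sets. The Aox1 set itself, the mean of 2 regions, had 7.5, 5 and 51.5, and its taller interval 209 bp before the start is listed alone under Sgol2 (11, 8 and 86).

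Glutathione transferases had 11 of 20 genes with a row in 9 sets, and the mu class spanned the widest range. Gstm1 had 22, 4 and 43. At 1.91-fold it was the member with the lowest ratio, -0.80 relative to all sets on the log2 scale. Gstm2 had 4, 1 and 12, Gstm3 8, 2 and 35, and the set shared by Gstm6 and Gstm7 had 6, 7 and 42. Gsta4, an alpha-class gene, had 8, 2 and 67 (7.56-fold). The set of Gstp1 is also that of Gstp2 (7.83-fold), and these genes are near-identical, so assignment between them is uncertain, as it may be between similar mu-class genes. The microsomal transferases Mgst1 (8, 4 and 36) and Mgst2 (5, 1 and 20) had folds of 4.11 and 3.50. The list's median of 2.04 was 0.30 relative to all sets, with 8 of the 9 sets at least 2-fold higher, again close to the 88.0% of all sets.

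Genes that supply NADPH had 5 of 10 with a row. Tkt, transketolase, had 21, 5 and 89 (4.09-fold), at a set whose nearest start is that of the microRNA gene Mir3076. Taldo1, transaldolase, had 8, 2 and 44 (5-fold), G6pdx 5, 2 and 27.5 (4.75-fold) and Pgd, phosphogluconate dehydrogenase, 7.5, 6.5 and 32.5 (3.94-fold). Me1, malic enzyme, was lowest with 7, 4 and 19 (2.50-fold). All 5 were at least 2-fold higher in Keap1KO (88.0% of all sets were), and the median of 2.03 was 0.30 relative to all sets.

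For heme and iron, 4 of 10 genes had a row. Ftl1, the ferritin light chain, had 20, 7 and 118 (5.67-fold) at an interval 1106 bp before its start, listed also under Gys1 and Bax. Fth1, the heavy chain, was far lower, with 7.5, 6.5 and 21 (2.59-fold). Hmox1, heme oxygenase, had 11.5, 3 and 39.5 (3.24-fold), and the heme transporter gene Slc48a1 had 11, 10 and 46 (3.92-fold). Hmox1 was higher in Keap1KO than in wild-type as deposited but -0.04 relative to all sets, and the list's median of 1.83 was 0.10 relative to all sets.

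Nrf2 and its partners had 5 of 12 genes with a row, all at least 2-fold higher in Keap1KO as 88.0% of all sets were, with a median of 1.65 as deposited that turned to -0.09 relative to all sets. Nfe2l2 had 17, 7 and 78 (4.39-fold), and Mafg, a small Maf gene, 8.67, 6 and 43.67 (4.62-fold). Bach1, which encodes a repressor that competes for the same elements, had 10.5, 10 and 35 (3.13-fold), or -0.09 relative to all sets. Keap1 had 6.33, 7.67 and 19.33, and Maff, another small Maf gene, 11, 17 and 26, so at both genes wild-type lay below Nrf2KO. Heights near Nfe2l2 and Keap1 are antibody signal and do not check the deletions.

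**Figure D2:**
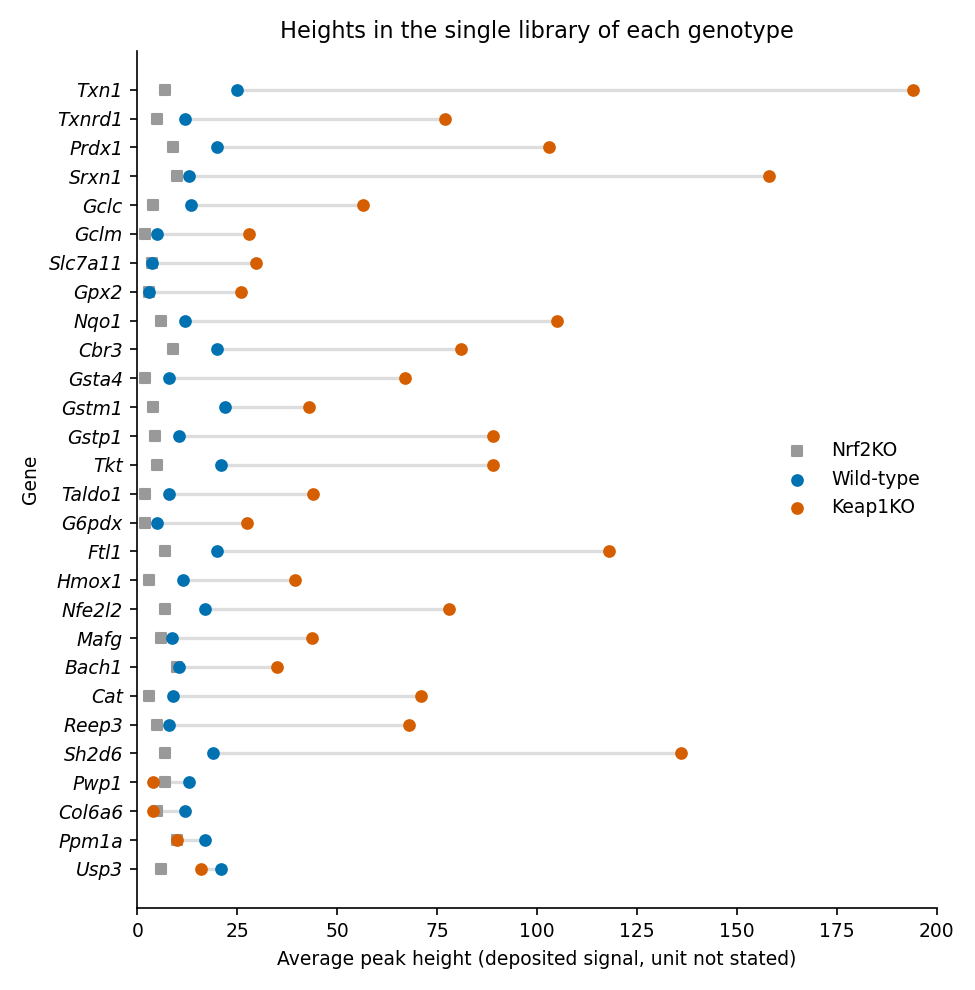
Average peak height (deposited signal, unit not stated) in the single library of Nrf2KO, wild-type and Keap1KO for 28 genes, 1 row each, with a grey line between wild-type and Keap1KO. The Keap1KO point is rightmost in every row except the last 4, Pwp1, Col6a6, Ppm1a and Usp3, where wild-type is.

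Several of the tallest intervals belonged to none of these lists. Sh2d6, an SH2 domain protein gene, had 19, 7 and 136 (6.85-fold) at an interval downstream of the gene (chromosome 6, position 72512752). Cat, catalase, which breaks down hydrogen peroxide, had 9, 3 and 71 (7.20-fold) at 4737 bp into the gene. Reep3, a receptor accessory protein gene, had 8, 5 and 68 (7.67-fold) at 70908 bp into the gene, the most distant of the 10 sets with the largest ratio among those of at least 8 in wild-type. The tallest set of the wild-type library, before Gm12758 and Gpi1 (a glycolytic enzyme), had 32, 4 and 101. Its 3.09-fold difference was -0.11 relative to all sets on the log2 scale.

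Lists of other pathways had a row for a smaller share of their genes, from 2 of 30 to 10 of 31, against 4 of 10 to 8 of 14 in the lists above. Of all protein-coding RefSeq genes, 7.67% had a row. All these lists were chosen with earlier results known. For autophagy, 3 of 27 genes had a row, and these were Gabarapl1 (8, 3 and 40), Atg9a (7, 9 and 35) and Tfe3 (6, 0 and 21). The Atg9a interval lay downstream of that gene, 12531 bp from its start, and was nearest to the start of Abcb6 (891 bp). The median of the list, which is the ratio of the Atg9a set, was 2.17, or 0.43 relative to all sets. Lipid metabolism and nuclear receptors had 10 of 31, with a median of 1.75, or 0.01 relative to all sets. In that list the retinoid receptor gene Rxra had 13.5, 3 and 63.5, the fatty acid receptor gene Ppard 14, 10 and 49, and the lipase gene Pnpla2 5, 11 and 40 at a set of 5 genes nearest to Cd151. Serine, one-carbon and amino acid response had 4 of 20 (median 1.99), with Slc1a4, an amino acid transporter, at 7, 1 and 20, Mthfd1l, a mitochondrial folate enzyme, at 2, 4 and 17 and the set of Trib3, a pseudokinase gene, at 1, 0 and 15. Sesn2, a stress-induced inhibitor of mTORC1, was the lowest member with 7, 5 and 12.

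Circadian clock genes had 4 of 17 with a row and a median of 1.92. Arntl, which encodes the clock activator BMAL1, had 10.67, 3.67 and 28.33. Its interval was called in wild-type too, and its ratio was -0.41 relative to all sets. The clock repressor gene Bhlhe41 had 8, 5 and 38, and Rora, a nuclear receptor gene, 4, 3 and 17. Wnt, Notch and Hippo signalling had 7 of 40 (median 1.91), with the receptor gene Notch1 at 8.5, 7 and 29 and its target Hes1 at 8, 5.5 and 26. The set of Apc and Srp19 had 11, 14 and 55, so wild-type lay below Nrf2KO. Its interval lay 137 bp before Srp19 and downstream of Apc, 110024 bp from the Apc start. Growth factor receptors and the MAP kinase pathway had 5 of 40 (median 2.17), all with low wild-type heights of 2 to 5. Among them were the phosphatase genes Dusp16 (2, 2 and 20) and Dusp4 (5, 4 and 26) and the receptor inhibitor gene Errfi1 (2, 5 and 15).

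The p53 pathway and cell cycle inhibitors had 5 of 24 genes with a row and a median of 1.84. Cdkn1a, which encodes p21, had 11, 6 and 42 at an interval 3263 bp before Trp53cor1, and Gadd45g had 8.75, 7.5 and 20.5. Bax owes its row to the interval before Ftl1. Squamous differentiation had 2 of 30, the peptidase gene Klk5 (3, 1 and 19) and the transcription factor gene Klf4 (3, 1 and 9), both at intervals more than 10 kb from the gene start. Of the markers of basal squamous cells 3 of 10 had a row, namely Krt14, Trp63 and Pax9, each with 3 in wild-type and 16 to 18 in Keap1KO. Muscle had 2 of 8 markers (Lmod1 and Ttn), fibroblasts 2 of 5 (Dpt and Vim), endothelium 0 of 3 and immune cells 1 of 4 (Cd68). In the rows of Krt14, Lmod1 and Cd68 the nearest start was that of another gene (Krt9, Shisa4 and Mpdu1 in that order). Such rows show antibody signal near a gene, not its expression, so they check neither the tissue nor its cell types.

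**Figure D3:**
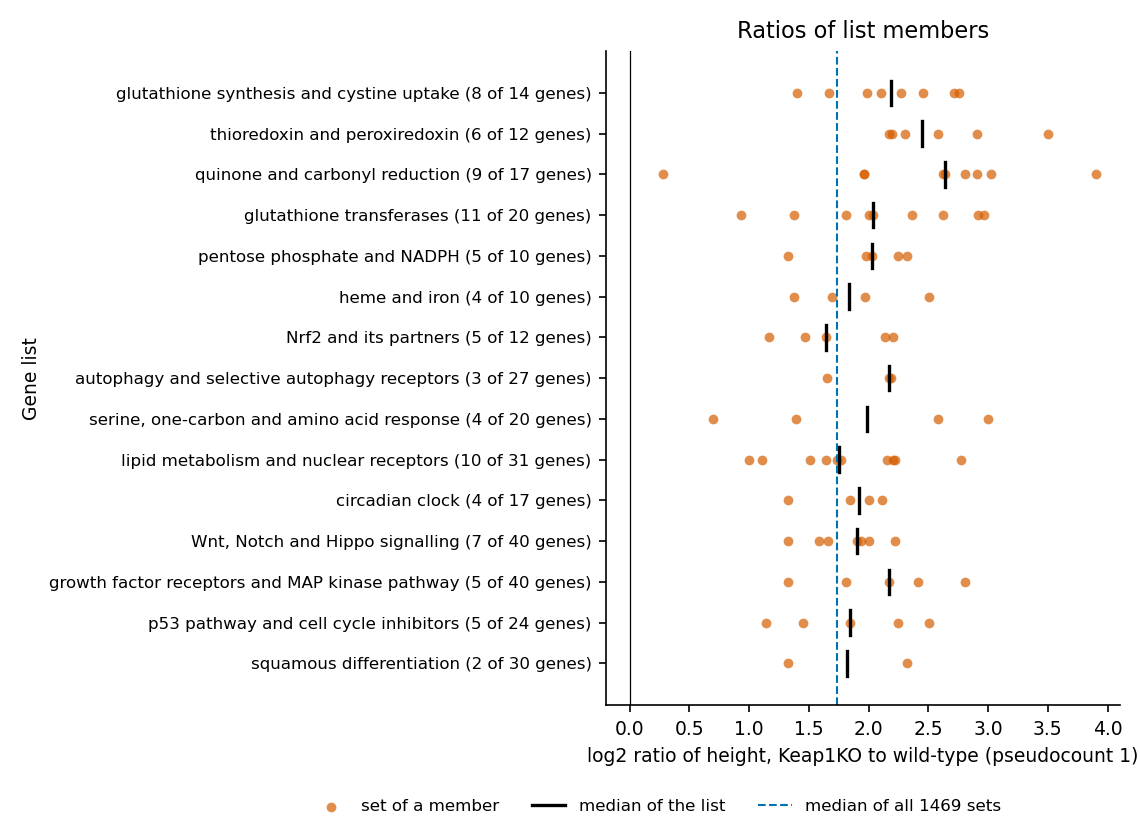
The log2 ratio of height, Keap1KO to wild-type with a pseudocount of 1 (horizontal), for the sets of each gene list (rows, with the genes that have a row of those listed); black ticks are list medians and the dashed line is the median of all 1469 sets, 1.74. Every point lies right of 0, and the median of Nrf2 and its partners is the 1 tick left of the dashed line.

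Intervals called in both libraries were tall in wild-type and had a lower ratio. There were 44 such sets, and their median heights were 13 (wild-type), 6.5 (Nrf2KO) and 38.75 (Keap1KO). Their median log2 ratio was 1.40 (1.20 to 1.76). In 33 of the 44 (75%) the Keap1KO height was at least 2-fold above wild-type, against 88.0% of all sets, and in 0 at least 8-fold, against 58 of all 1469. The largest ratios were at Gstp1, Txn1 and Sh2d6, and the lowest at Usp3, Asxl2 and Ets2. The following sets were named after their values were seen. Vcp, an ATPase that extracts ubiquitinated proteins, had 10, 5 and 44, and Trim16, a ubiquitin ligase gene of the stress response, 17, 10 and 54. Lpl, lipoprotein lipase, had 9, 3.5 and 18, and Psma1, a proteasome subunit gene, 11, 8 and 13. Calls were made in Keap1KO only at 1413 sets, whose median was 1.74, and in wild-type only at 12, whose median was -0.63. Of the 56 wild-type intervals, 42 had a Keap1KO interval within 500 bp, at a median distance of 52 bp, and the nearest of the other 14 was 704 bp away. Because a set is in the table only through a call in 1 of these libraries, heights are selected upwards in the library of the call, and the part of this in the ratios was not tested.

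Keap1KO stood below wild-type at 15 sets, 12 of them called in wild-type only, and level with it at 3. The set between Atl1, which encodes a GTPase that fuses endoplasmic reticulum tubules, and the kinase gene Map4k5 had 12, 6 and 2. The set of Tbp, the TATA box binding protein, and the proteasome gene Psmb1 had 10, 7 and 2. With Pwp1 (13, 7 and 4) and the collagen gene Col6a6 (12, 5 and 4), these were the 4 sets at least 2-fold lower. At all 4 the Keap1KO height was also below that of Nrf2KO. Ppm1a, a protein phosphatase gene, had 17, 10 and 10, the set of Gabpa 13, 7 and 8, Ufl1, a ligase of the UFM1 modifier, 16, 11 and 10, and the histone gene H3f3a 10, 9 and 7. Usp3, a deubiquitinase gene, was called in both libraries and had 21, 6 and 16. The remaining 6 were Arl15 (14, 7 and 10), Tnrc6c (13, 4 and 10), Asxl2 (14, 8 and 11), Ddx3x (14, 5 and 11), Ets2 (13, 9 and 11) and Capn2 (16, 10 and 14). Of the 15 sets, 12 lay within 1 kb of a gene start, where 458 of all 1469 lay. All 15 were called in wild-type, whereas 1413 of all 1469 sets and 430 of those 458 were not. These shares therefore compare sets with unlike calls. How many sets repeat libraries would place below equality was not measured.

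The ratio was lower close to gene starts. Within 1 kb of the nearest start, the median log2 ratio was 1.44 (1.35 to 1.49), which is -0.30 relative to all sets. It was 1.85 (1.77 to 1.91) between 1 and 10 kb, 1.86 (1.78 to 1.96) between 10 and 50 kb and 1.84 (1.77 to 1.93) beyond 50 kb. Keap1KO heights hardly differed between these classes, with medians of 17.5, 19, 18 and 17.25 in that order. Nearly all sets are listed through a Keap1KO call, and how far that call evens out these medians was not tested. Wild-type medians were 6.5, 5, 4.5 and 4, and those of Nrf2KO were 7, 4, 4 and 3, so the 2 libraries with few or no calls were higher near starts. At the 430 sets within 1 kb that were not called in wild-type the median was 1.44 too. In 307 of the 458 sets within 1 kb, wild-type or Keap1KO was at least 2-fold above Nrf2KO, against 1255 of all 1469. Tall examples stood on both sides of this line. Txn1, Srxn1, Nqo1 and Gsta4 lay within 1 kb of a start, and Cat, Reep3 and Gclc did not. By the placing of the table, the median was 1.61 at 426 sets upstream of a gene, 1.75 at 885 in a gene and 1.85 at 158 downstream. The table gives no exons or introns.

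**Figure D4:**
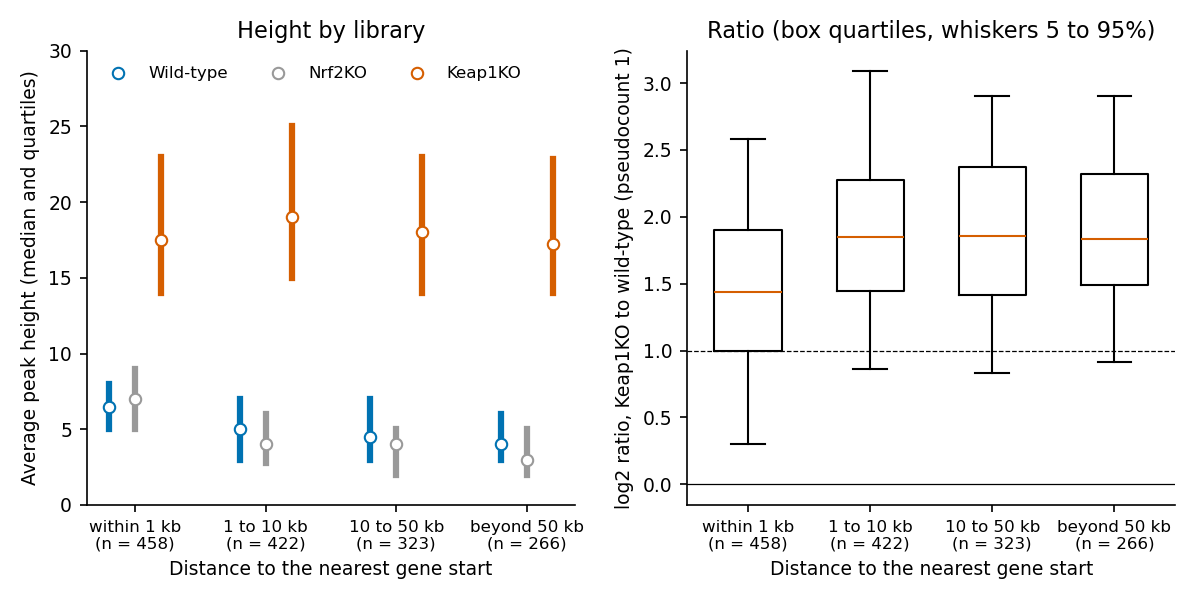
Left, average peak height (median as a circle, quartiles as a bar) in wild-type, Nrf2KO and Keap1KO by distance to the nearest gene start; right, the log2 ratio of Keap1KO to wild-type with a pseudocount of 1 in the same classes. The ratio's median is 1.44 within 1 kb and 1.84 to 1.86 farther away, while the Keap1KO medians stay between 17.25 and 19.

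The order of heights was shared only in part. Of the 20 highest sets in each library, wild-type and Keap1KO had 10 in common, of the highest 50 they shared 18 and of the highest 100 they shared 39. Over 1469 sets, log2 heights in wild-type and Keap1KO were correlated at 0.380 by Pearson's r and 0.340 by Spearman's rho. The same measures were 0.383 and 0.420 for wild-type with Nrf2KO, and 0.132 and 0.118 for Keap1KO with Nrf2KO. These are descriptions across sets, which share tissue and antibody and are selected by calls. Sets with a wild-type height of at most 3.25 (368) had a median log2 ratio of 2.39, and those above 7 (342) had 1.22, a contrast partly built in because the ratio contains that height. By the height in Nrf2KO, which the ratio does not contain, the median was 1.93 in the lowest of 4 groups (508 sets) and 1.40 in the highest (297). Dusp16 and Akr1b8 are examples of a low wild-type height, and Gstm1 and Gpi1 of a high one. The number of active regions made little difference, with medians of 1.74 for 1 region, 1.72 for 2 and 1.71 for 3 or more. Between chromosomes the median ran from 1.51 on chromosome 2, where Srxn1 and Nfe2l2 lie, to 2.03 on chromosome 14, where Tkt lies.

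Promoter windows beside the compared intervals held 4 of the 5 searched motifs at a share whose exact interval lay above the share in all promoter windows. A window runs from 250 bases before to 50 after a RefSeq start, and 157 sets had an interval in a window. These fell in 148 distinct windows, so some sets share one and the intervals below treat them as separate. The 52 sets on chromosome 18 were not searched. The core TGACNNNGC, searched on both strands, was beside 59 of the 157 sets (37.6%, exact 95% interval 29.99 to 45.7) and in 12.4% of all 32817 windows. TGANTCA was in 37 (23.6%, 17.2 to 31.0, against 7.81%), and the extended 10-base element in 9 (5.73%, 2.65 to 10.6, against 0.155%). CCGGAAG was in 33 (21.02%, 14.9 to 28.2, against 8.86%), and GCATGCGC, the site of the factor NRF1, in 6 (3.82%, 1.42 to 8.13, against 2.71%). The motifs can overlap, and 14 of the 148 distinct windows held both TGANTCA and TGACNNNGC. None of the 5 was in 50 of them, among these that of Slc7a11. No letters in this window say nothing about the rest of an interval.

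The shares of the motifs ran in different directions along the ratio, with wide intervals. Sets were ranked by log2 ratio into 4 groups, bounded at 1.30, 1.74 and 2.20. The window held TGANTCA at 19.1% of the 68 sets of the lowest group, 19.4% of 36, 24.1% of 29 and 41.7% of the 24 in the highest, where Srxn1, Gstp1 and Osgin1 stood. CCGGAAG went the other way, with 30.9% in the lowest group, where Bms1, Urm1 and Gabpa stood, and 16.7%, 10.3% and 12.5% in the others. TGACNNNGC was in 32.4%, 41.7%, 34.5% and 50%. With each window counted once, 12 of 66 in the lowest group and 9 of 23 in the highest held TGANTCA. For CCGGAAG these counts were 21 of 66 and 3 of 23. The exact 95% intervals of the lowest and highest groups overlapped for each of these motifs, as with 10.6 to 30.5 and 22.1 to 63.4 for TGANTCA. The median log2 ratio was 1.68 (1.30 to 1.96) with TGANTCA and 1.39 (1.22 to 1.50) without it. With CCGGAAG it was 1.20 (1.00 to 1.39), and without it 1.48 (1.32 to 1.70). With TGACNNNGC it was 1.44 (1.29 to 1.75) and without it 1.32 (1.22 to 1.53). For the extended 10-base element it was 1.32 (1.08 to 2.25) at 9 sets and 1.43 (1.29 to 1.58) without it. That element was beside 5.88%, 2.78%, 3.45% and 12.5% of sets from the lowest to the highest group, so no direction is clear. It was beside 0 of the 25 sets with a Keap1KO height of at least 30. Only a fixed spelling was searched. The Prdx1, Osgin1 and Gstp1 windows, all at such tall sets, hold stretches that differ from it by a single letter. How often such stretches occur in the other windows was not counted, so nothing is drawn from these examples. Median heights of wild-type, Nrf2KO and Keap1KO were 7, 9 and 16 with CCGGAAG and 6.5, 6.58 and 18.1 without it, so the Nrf2KO height differed as well. Whether the motif or that background height goes with the lower ratio was not tested.

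**Figure D5:**
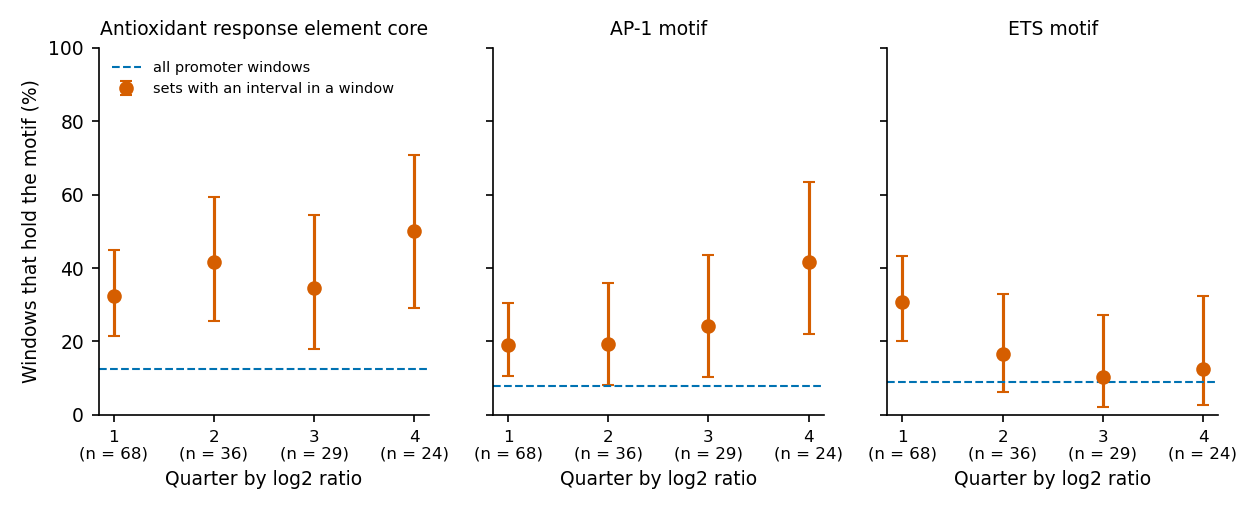
Share of sets whose promoter window holds each motif (percent, with exact 95% binomial intervals) in the 4 groups of sets by log2 ratio from lowest (1) to highest (4), and, dashed, in all 32817 windows. The AP-1 share is 19.1% in group 1 and 41.7% in group 4, the ETS share 30.9% and 12.5%, and the intervals overlap.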

How the data were processed

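The deposited table holds 1 row per gene. Per the file headers its values are an average peak height per ChIP library, a signal of unstated unit and scaling, and a flag for a called interval. The submitters' processing notes name BWA, MACS2 2.1.0 and mm10; settings are not given in the sources used. Of the 1681 rows with 1 active region, 100% had whole-number heights. Other heights were means over a gene's regions. Depth is unknown.

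Rows with the same intervals were merged into 1469 sets, each labelled by the gene whose start was nearest. Of the 1727 intervals, 73 were in more than 1 set. Ratios were log2((Keap1KO + 1)/(wild-type + 1)), which understates changes at low heights. Of the gene rows, 1878 were matched by identifier to RefSeq GRCm38.p6, and 78.3% had both ends within 1 kb of it. No genome was used, so motifs were searched in RefSeq promoter windows only.

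Named sets were the 10 largest differences, the 10 largest ratios with a wild-type height of at least 8, the 10 lowest ratios, sets with a ratio below 0, sets called in wild-type only, and up to 3 members with the highest Keap1KO height from each of 15 lists; others named were chosen after their values were seen. A set that the rule names is not reported here. Members, lists and rule were chosen with earlier results of these data known. Alternatives were other pseudocounts (0.5 and 5), a filter on mean height, single-region rows, every gene row, centred ratios, sets 2-fold above Nrf2KO, other distances, a stricter call, a 200-base window and each window counted once. Python 3.11.15, pandas 2.3.3 and scipy 1.17.1 were used, and the scripts were tested on simulated data.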

Additional observations from a re-analysis of the deposited data

How the results depend on the processing

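No paired analysis was possible because there is 1 library per genotype. By a margin on size (the 95% interval of the median, or 1.5-fold for counts, single values and small lists), 38 values of the main results stayed within it, 24 moved and 1 changed sign. Of the other values 330 stayed, 136 moved and 17 changed sign. Filters leave fewer sets, and pseudocounts and centring shift ratios by construction; otherwise the cause was not tested. Unknown depth limits every ratio, and the intervals cover the spread over sets, not animals. Chosen after seeing the data, leaving out sets that share an interval kept the median at 1.74, and counting each promoter window once gave 37.8% for TGACNNNGC. Maximum heights were not run, since the table gives one for 1 library per gene only.

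A pseudocount of 0.5 gave medians of 1.83 for all sets, 1.50 within 1 kb of a start, 1.93 from 1 to 10 kb and 1.95 beyond 50 kb. A pseudocount of 5 gave 1.24 for all sets and 1.06, 1.34, 1.32 and 1.32 by distance. The filter on mean height (at least 9.5) left 636 sets 2-fold higher, 0 lower and a median of 1.99 beyond 50 kb. Sets 2-fold above Nrf2KO gave a median of 1.81, 1 set lower and 1.58 within 1 kb. That filter kept 307 of 458 sets within 1 kb, 394 of 422 from 1 to 10 kb, 300 of 323 from 10 to 50 kb and 254 of 266 beyond. Within 5 kb of a start the median was 1.58. Counting calls only from heights of 18 in Keap1KO and 13 in wild-type, 737 sets were called in Keap1KO only and 21 in both. Centring gave a median of 0, with 109 sets higher and 102 lower, and 0.11, 0.12 and 0.10 in the distance classes from 1 kb on. It changed the sign within 1 kb (-0.30), upstream (-0.12), at wild-type heights above 5 and up to 7 (-0.30) and above 7 (-0.52), and with 2 and 3 or more regions (-0.019 and -0.032). It did so too for Nrf2 and its partners (-0.091) and at Gm12758 (-0.11), Gstm1 (-0.80), Hmox1 (-0.041), Bach1 (-0.091), Tfe3 (-0.085), Slc1a4 (-0.34), Arntl (-0.41), Notch1 (-0.078), Hes1 (-0.15), Gadd45g (-0.60) and Klf4 (-0.42).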
